A study of Mus musculus with 16 samples.

Results

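Mitochondria carry their own ribosomes, which translate the few proteins that mitochondrial DNA still encodes, all of them subunits of the respiratory chain and ATP synthase. The ribosome has a small subunit, which holds the messenger RNA and decodes it, and a large subunit, which joins amino acids and threads the new protein towards the inner membrane. Its RNAs come from the mitochondrial genome, but every one of its proteins is encoded in the nucleus, so building it needs both genomes. The intestinal epithelium holds absorptive enterocytes, which are rich in mitochondria, and secretory cells such as goblet and Paneth cells.

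The mitochondrial ribosomal protein genes were taken as the protein-coding genes whose symbol begins with Mrpl (large subunit) or Mrps (small subunit) followed by a digit. Of 45513 genes in the count tables, 77 met this rule, 48 of the large and 29 of the small subunit. Counts were high enough to test 76 of them, and across those the count in a single library ran from 86 to 2842. Mrpl53 was the exception, with at most 2 reads in any library. Its exons share 87.1% of their bases on the same strand with the gene model Gm42688, which had up to 261 reads, and reads falling on both models were assigned to neither, so its level could not be read. The symbols are not an exact guide to the ribosome: the proteins of Mrps18a and Mrps30 sit in the large subunit, and that of Mrps36 is now known as a subunit of the α-ketoglutarate dehydrogenase complex.

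The libraries came from 8 Atoh1(WT)CreERT2 R26RtdTom mice, in which tamoxifen-activated Cre, expressed from the Atoh1 locus, switches on the red reporter tdTomato. Atoh1 is the transcription factor that specifies secretory cells, so the reporter marks the secretory lineage. From the small intestine (SI) of each mouse, live EpCAM+ epithelial cells were sorted into a tdTom+ and a tdTom- fraction, giving 8 libraries of each. EpCAM is a cell adhesion molecule of epithelia. Mice were homozygous for the Atoh1 allele, heterozygous for the reporter, on a C57BL/6 background, of both sexes and 8 to 16 weeks old. All received tamoxifen, for which the labels and the study's methods give 1 mg on each of 3 days. Both fractions of a mouse therefore share the inherited genotype and the agent, and differ in whether Cre had switched on the reporter. Before sorting, the villus-enriched wash was discarded and the fractions enriched for crypts were pooled. Totals ran from 17116405 to 25323567 counts per library. The sort was as labelled, with Atoh1 higher in tdTom+ cells by 6.43 on the log2 scale, Muc2 of goblet cells by 7.49 and Lyz1 of Paneth cells by 7.42, and Alpi, an enterocyte brush border enzyme, at -3.21. Mki67, a marker of dividing cells, was at 0.06 and did not pass (adjusted p = 0.611 in the edgeR test described next). The tdTom- fraction was a mixture led by absorptive cells. It can also hold secretory cells, as the study found mature enteroendocrine cells and tuft cells unlabelled shortly after a tamoxifen pulse. In such bulk samples fewer cells of a type and less RNA per cell cannot be told apart.

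Mitochondrial ribosomal protein genes were, as a group, modestly lower in tdTom+ than in tdTom- cells. In the edgeR quasi-likelihood test with the mouse as a block, 38 of the 76 genes were lower at an adjusted p under 0.01 and 3 were higher. Over all genes tested the shares were 30.0% lower and 25.8% higher, and 55.8% were called in either direction, so the share of members called either way (41 of 76, 53.9%) was near the background while the split between directions was not. The members' median log2 fold change (tdTom+ over tdTom-) was -0.27, a level 16.9% lower, beside 0.02 over all genes. Most changes were small, with 15 of the genes called lower by 0.5 or more on the log2 scale and 2 by 1 or more. The lower quartile of the log2 fold changes was -0.41 both for the members and over all genes tested. The upper quartile was -0.17 for the members and 0.35 over all genes. The members thus differed from genes in general by how few rose, not by how far they fell. For 18 members the 8 tdTom+ values all lay under the 8 tdTom- values, which held for 17.0% of all genes tested, and for 0 members did they all lie above, which held for 14.6%. Another 17 members reached an unadjusted p under 0.05 without passing the adjusted threshold. The matching share of all genes is not given, so no excess can be read from this count.

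**Figure D1:**
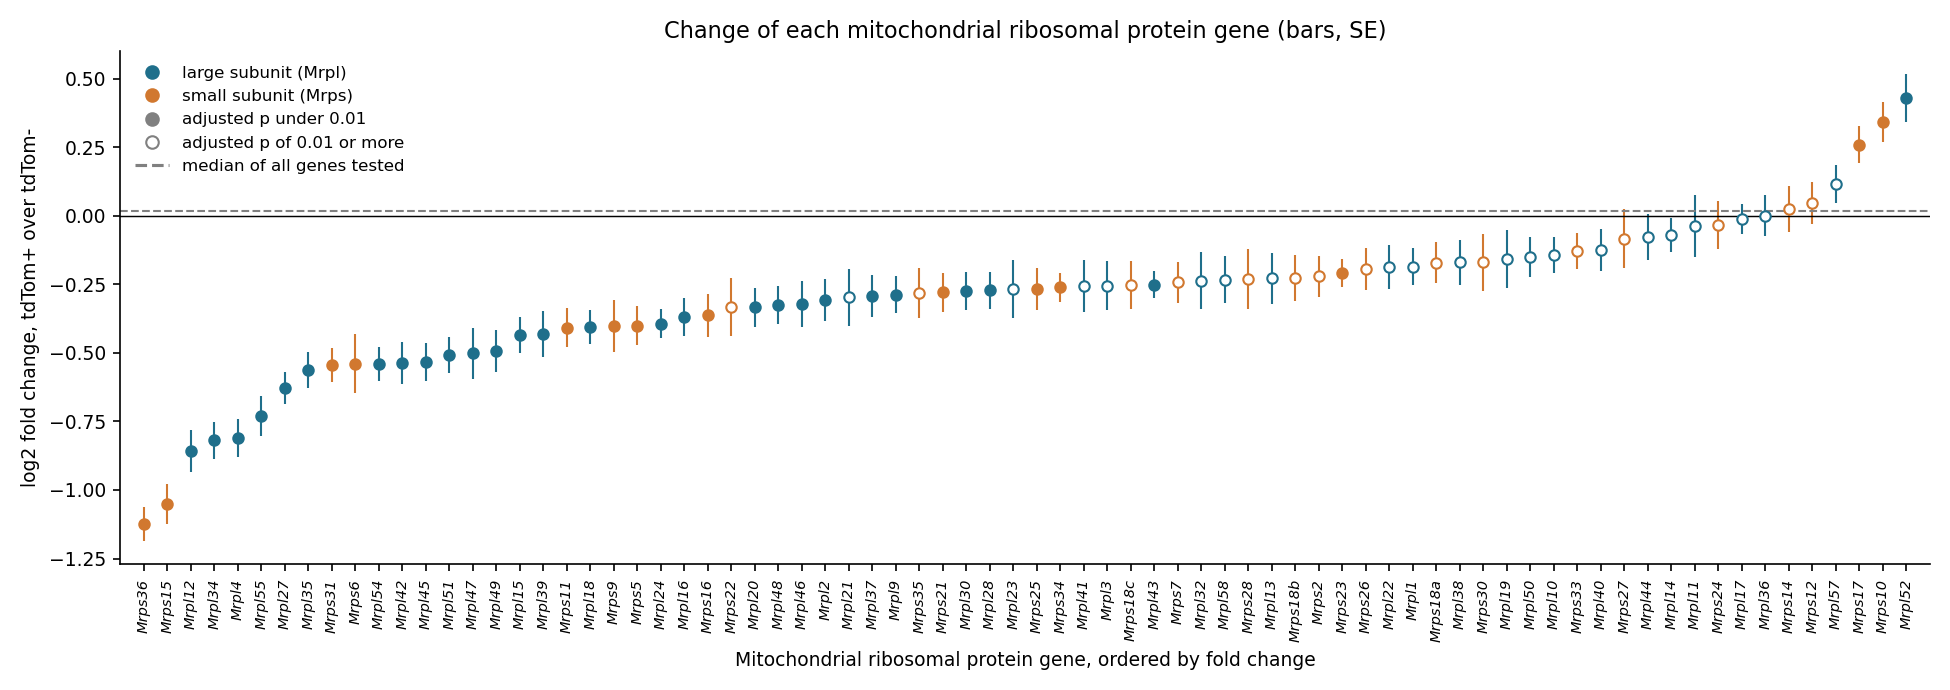
Log2 fold change (tdTom+ over tdTom-, with its SE, n = 8 mice) of each of the 76 genes tested, ordered from lowest to highest and coloured by subunit; filled points passed an adjusted p of 0.01 and the dashed line is the median of all genes. Filled points lie mostly on the left, from Mrps36 at -1.12, and 3 lie on the right, ending with Mrpl52 at 0.43.

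Mrps36, the dehydrogenase subunit, fell furthest. Its level in tdTom- cells had a lowest value of 24.2, a median of 29.2 and a highest value of 32.7 CPM (counts scaled to library size by TMM), against 11.4, 13.2 and 16.1 in tdTom+ cells. The fractions did not overlap, and the log2 fold change was -1.12 ± 0.06 (SE, n = 8 mice, adjusted p = 2.09e-09). Reads of Mrps36 could be split with 3 processed pseudogenes of the same symbol, but the sum of all 4 genes told the same, at 32.0 to 42.6 CPM in tdTom- and 14.9 to 21.3 in tdTom+ libraries.

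Mrps15, a small-subunit protein that bacterial ribosomes also have, showed the next largest fall, and it is the largest among genes whose proteins sit in the ribosome. In tdTom- cells it was almost constant between mice, at 36.9, 39.4 and 40.3 CPM (lowest, median and highest), and in tdTom+ cells it stood at 15.5, 18.4 and 23.0. The log2 fold change was -1.05 ± 0.07 (SE, n = 8 mice, adjusted p = 2.20e-08). The ratio in single mice ran from -1.37 in mouse 3 to -0.71 in mouse 6.

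Mrpl12 codes for the protein of the flexible stalk of the large subunit, which recruits translation factors and has also been found to bind the mitochondrial RNA polymerase. It stood at 104, 110 and 130 CPM in tdTom- and 50.4, 64.7 and 73.1 in tdTom+ libraries. The gap between the fractions exceeded the spread within either, and the log2 fold change was -0.86 ± 0.08 (SE, n = 8 mice, adjusted p = 2.96e-07). Mrpl10, whose protein anchors the stalk, was at -0.14 ± 0.07 and did not pass (adjusted p = 0.0760), nor did Mrpl11 beside it at -0.04 ± 0.11 (adjusted p = 0.779).

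The next 3 falls were all of the large subunit. Mrpl34, a small protein with a bacterial counterpart, had values of 31.6, 33.9 and 40.3 CPM in tdTom- and 17.9, 19.5 and 21.3 in tdTom+ libraries (log2 fold change -0.82 ± 0.07, SE, n = 8 mice, adjusted p = 1.13e-07). Mrpl4, which in bacteria lines the exit tunnel of the new protein, stood at 40.6, 45.0 and 52.5 against 23.4, 25.5 and 32.0 CPM (-0.81 ± 0.07, adjusted p = 1.48e-07). Mrpl55, which is found in animal mitochondria but not in bacteria, stood at 17.8, 19.2 and 20.7 against 10.1, 11.5 and 13.6 CPM (-0.73 ± 0.07, adjusted p = 8.49e-07). In all 3 the fractions were apart and every mouse went the same way. Besides these 6 genes the fractions were also apart for Mrpl27, Mrpl35, Mrps31, Mrpl54, Mrpl42, Mrpl45, Mrpl51, Mrpl49, Mrpl15, Mrps11, Mrpl18 and Mrpl43, whose log2 fold changes lay between -0.63 and -0.25.

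Genes that rose were Mrpl52, Mrps10 and Mrps17, and in each the fractions overlapped. Mrpl52, a mitochondria-specific protein of the large subunit, stood at 16.8, 20.9 and 32.2 CPM in tdTom- and at 27.4, 30.9 and 32.6 in tdTom+ libraries (log2 fold change 0.43 ± 0.09, SE, n = 8 mice, adjusted p = 6.70e-04). Mrps10 stood at 12.1, 14.4 and 18.6 against 17.0, 18.4 and 19.8 CPM (0.34 ± 0.07, adjusted p = 9.01e-04); its bacterial counterpart lies in the head of the small subunit. Both were higher in all 8 mice, but by only 0.02 and 0.00 in mouse 7, where the tdTom- library held the highest value of each. Mrps17, another bacterial-type small-subunit protein, stood at 22.2, 23.9 and 30.9 against 27.0, 29.8 and 32.4 CPM (0.26 ± 0.07, adjusted p = 4.01e-03) and was higher in 7 of 8 mice. The call of Mrps17 was lost with mouse 1, 2 or 8 left out (0.24, 0.22 and 0.25), with total-count scaling and with a trend in gene length removed, and the last also ended the call of Mrps10.

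Upstream sequence is shown for the 3 genes that fell furthest and for 2 that rose, so that they can be set side by side. The stretch of Mrps10 lies wholly within the gene as the files bound it and is not shown. Those of Mrps15 and Mrpl12 also run, at their 3′ ends, past the gene start in the files (126046925 and 120484613). Each line gives the 100 bases before the transcription start in RefSeq (GRCm38.p6), 5′ to 3′ on the gene's strand, and capitals mark a match to one of the 6 motifs searched.
Mrps36, chr13:100744660-100744759, minus strand: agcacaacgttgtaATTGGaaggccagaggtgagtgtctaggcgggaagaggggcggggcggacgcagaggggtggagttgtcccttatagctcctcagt
Mrps15, chr4:126046828-126046927, plus strand: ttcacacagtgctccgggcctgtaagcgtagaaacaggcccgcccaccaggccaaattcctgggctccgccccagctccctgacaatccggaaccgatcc
Mrpl12, chr11:120484537-120484636, plus strand: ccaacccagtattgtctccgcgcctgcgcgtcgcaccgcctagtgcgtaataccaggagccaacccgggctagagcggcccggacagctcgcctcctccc
Mrpl52, chr14:54426809-54426908, plus strand: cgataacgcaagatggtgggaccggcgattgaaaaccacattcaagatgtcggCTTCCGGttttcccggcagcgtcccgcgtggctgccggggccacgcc
Mrps17, chr5:129715397-129715496, plus strand: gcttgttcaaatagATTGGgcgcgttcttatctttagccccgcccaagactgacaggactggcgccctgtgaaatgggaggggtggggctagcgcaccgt

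The capitals in Mrps36 and Mrps17 are the CCAAT box read on the other strand, from 86 to 82 bases before the start; Mrps10 held the same letters from 81 to 77 bases before its start. In Mrpl52 they are the ETS motif CCGGAAG on the other strand, from 47 to 41 bases before the start. Mrps15 and Mrpl12 held none of the motifs in this stretch.

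Motifs were counted in the window from 250 bases before to 50 after each start, on both strands, for the 68 members that had an entry, beside all 27025 promoters and the 10167 of genes tested. The ETS motif, bound by GABP, an activator of many nuclear genes for mitochondrial proteins, was in 25 of 68 members (36.8%), in 9.93% of all promoters and in 19.9% of those of genes tested. The core of the NRF1 motif, CGCATGCG, was in 7 members (10.3%; 2.07% of all promoters and 4.23% of those tested), and the YY1 motif AAGATGGCG in 8 (11.8%; 1.64% and 3.58%). Both factors are known for binding at start sites of housekeeping and mitochondrial genes. The MYC E-box CACGTG was in 5 members (7.35%; 8.09% of all promoters and 11.6% of those tested), CCAAT in 26 (38.2%; 41.1% and 43.3%) and TATAAA in 5 (7.35%; 15.7% and 9.19%). No motif contains another, though the end of the ETS motif and the start of the YY1 motif share the letters AAG and can overlap there.

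Among members with an entry the ETS motif was in 9 of the 34 that were lower (26.5%) and in 14 of the 30 that were not called (46.7%). The NRF1 core was in 2 of 34 and 5 of 30, and the YY1 motif in 4 and 4. By subunit, the ETS motif was in 14 of 42 large-subunit (33.3%) and 11 of 26 small-subunit promoters (42.3%), and the NRF1 core in 6 and 1. These counts are a description of letters in a window and were not tested. Base composition was close between the members (59.2% G and C) and all genes tested (60.2%), and lower over all promoters (53.8%).

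The large subunit was compared with the small one by symbol, as a description without a test. In the large subunit 26 of 47 genes tested were lower (55.3%) and 1 was higher (2.1%). In the small subunit 12 of 29 were lower (41.4%) and 2 were higher (6.9%). Of all genes tested, 30.0% were lower and 25.8% higher. The median log2 fold changes were -0.29 and -0.24, a difference of -0.04. Within single mice the difference of the medians ran from -0.16 to 0.04 and was below 0 in 6 of 8. With Mrps18a and Mrps30 counted where their proteins sit and Mrps36 left out, the difference of medians was -0.03. Most of both subunits lay on the same side, with 44 of 47 and 25 of 29 log2 fold changes below 0. Over all genes tested, 7459 of 15323 were below 0.

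Summed over its genes, the large subunit took 1322 to 1731 CPM in tdTom- libraries (median 1389) and 1020 to 1233 in tdTom+ libraries (median 1153), and the fractions did not overlap. For the small subunit the sums were 624 to 864 (median 671) and 520 to 629 (median 595), with a slight overlap. The ratio of the large to the small sum, which does not depend on library scaling, was 2.07 ± 0.06 (SD, n = 8) in tdTom- and 1.96 ± 0.03 in tdTom+ cells, and it was lower in tdTom+ cells in 8 of 8 mice. Part of that shift was Mrpl12 alone: without it the ratios were 1.91 ± 0.05 and 1.85 ± 0.03, still lower in tdTom+ cells in 8 of 8 mice, by 0.03 to 0.13. These sums and ratios follow the symbols, so Mrps18a, Mrps30 and Mrps36, the member that fell furthest, count as small subunit. The ratio with these genes reassigned is not given.

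**Figure D2:**
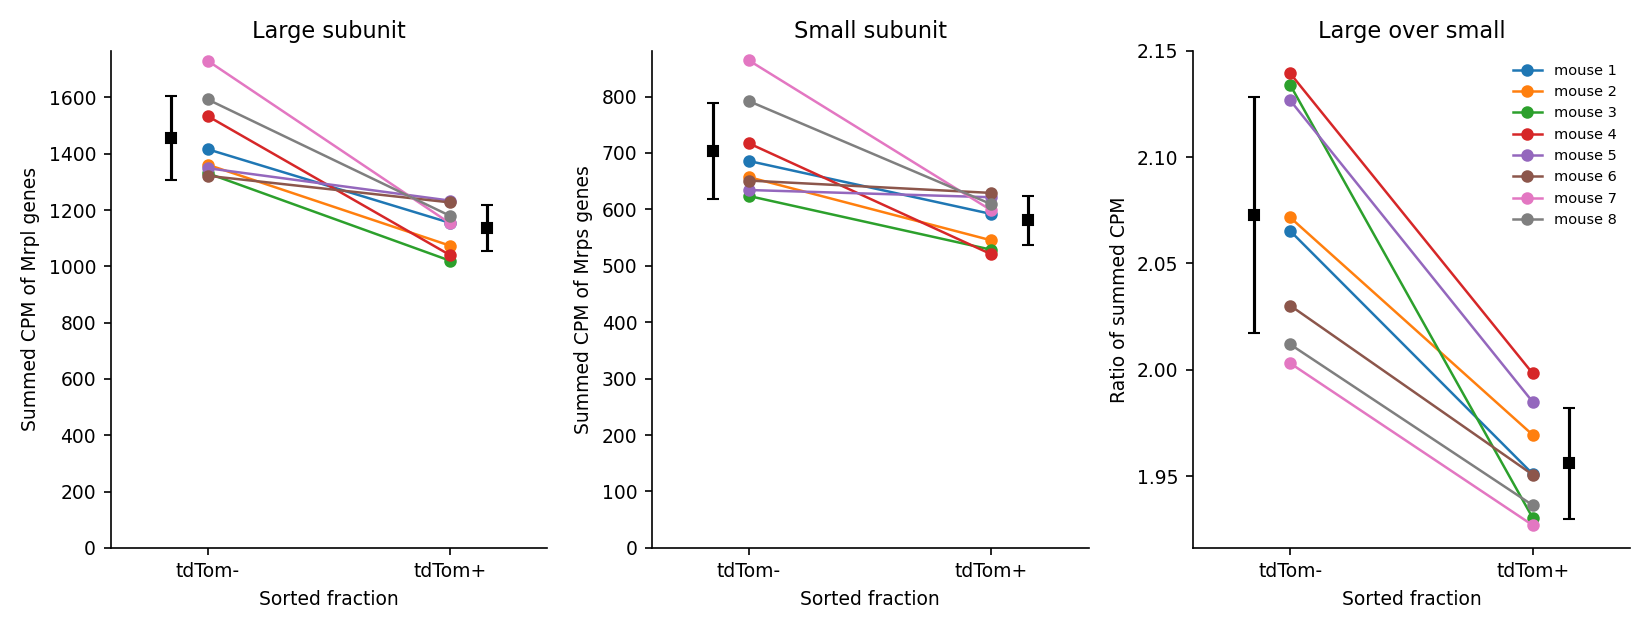
Summed CPM of the large-subunit genes, of the small-subunit genes, and the ratio of the sums (right, axis not from 0), for the tdTom- and tdTom+ library of each mouse joined by a line; black squares and bars are the mean and SD of 8 libraries. All lines fall; the sums fall steeply in mice 4 and 7 and little in mice 5 and 6, while the ratio falls most in mouse 3, from between 2.003 and 2.139 to between 1.927 and 1.998.

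The size of the difference varied from mouse to mouse. From tdTom- to tdTom+ cells, the summed level of all 77 members changed by -5.90% in mouse 6 and -6.47% in mouse 5, by -16.9% to -25.0% in mice 1, 2, 3 and 8, and by -30.7% and -32.5% in mice 4 and 7. As medians over the members, the log2 ratios ran from -0.58 in mouse 7 to -0.01 in mouse 5, and in every mouse the median lay below that of all genes tested, by 0.06 to 0.46. In mice 5 and 6 only 41 of the 76 genes were below 0, and in mouse 7 it was 74. The sums varied more among tdTom- libraries, where they ran from 1955 to 2594 CPM, mouse 7 being highest, while tdTom+ sums ran from 1548 to 1856.

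**Figure D3:**
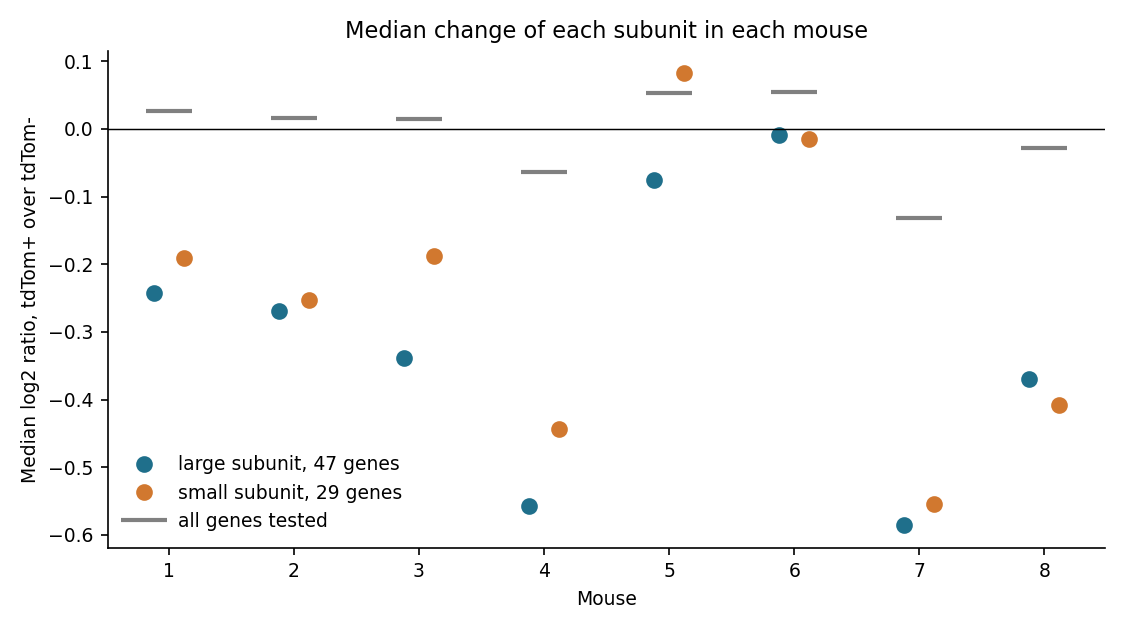
Median log2 ratio (tdTom+ over tdTom-) in each mouse for the 47 large-subunit genes, the 29 small-subunit genes and all genes tested (grey bars). Both subunits sit well under the grey bar in mice 4, 7 and 8, whereas in mouse 5 the small subunit is at 0.08, above it.

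Other cell types moved with these values. Absorptive markers were lower in tdTom+ cells in 8 of 8 genes, with a summed level of 14550 to 38346 CPM in tdTom- and 1563 to 6021 in tdTom+ libraries, none of the 8 being at 0. Goblet, Paneth and enteroendocrine markers were higher in 8 of 8 genes each, tuft markers in 6 of 6 tested, and stem markers in 5 of 8. Proliferation markers did not separate the fractions (0 of 8 called in either direction, 387 to 784 CPM in tdTom- and 448 to 628 in tdTom+), but in the tdTom- library of mouse 7, which had the highest member sum, they and the stem markers were at their highest and the absorptive markers at their lowest. Immune markers were lower in 6 of 8 genes (10.6 to 148 against 5.96 to 28.9 CPM). Their tdTom- sums were 135 CPM in mouse 7 and 148 in mouse 8, whose tdTom- libraries also had the highest member sums (2594 and 2385 CPM). In the other tdTom- libraries the immune sums were 10.6 to 39.0 CPM. The summed stromal markers stood at 4.12 to 8.36 against 18.6 to 46.0 CPM. Most of the tdTom+ sum was Vim alone, with means of 2.30 CPM in tdTom- and 23.4 in tdTom+ libraries. It was the only stromal marker called, and 3 of the 8 could be tested. Acta2 (-0.14) and Pecam1 (0.33) did not pass, so the sum does not show a general rise of stromal markers. The part of these cell types in the members' difference was not tested.

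Per length, the members' levels spanned a wide range in each fraction, although their proteins enter the ribosome mostly in single copies. In CPM per kilobase of exon (kb), the mean level of the 76 genes ran from 1.82 to 73.6 in tdTom- cells (median 14.6) and from 2.25 to 42.0 in tdTom+ cells (median 11.2). The exon length in the files adds up all annotated isoforms, so a gene with a long rare isoform is set too low. Medians by subunit were 15.2 and 12.0 for the large and 12.6 and 10.4 for the small subunit (tdTom- and tdTom+).

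Mrpl12 led in tdTom- cells at 73.6 ± 5.85 CPM per kb (SD, n = 8), above Mrpl42 at 61.0 ± 7.69 and Mrpl34 at 53.9 ± 4.82. In tdTom+ cells Mrpl42 (42.0 ± 4.93) and Mrpl12 (40.8 ± 5.40) could not be ordered within their spread, and Mrpl34 (30.5 ± 1.96) followed. Highest in the small subunit were Mrps16 (36.9 ± 4.01 and 28.7 ± 2.73 CPM per kb in tdTom- and tdTom+ cells) and Mrps21 (36.4 ± 2.46 and 30.0 ± 2.97), which did not differ beyond their spread in either fraction. Both were lower in tdTom+ cells, with log2 fold changes of -0.36 ± 0.08 (SE, n = 8 mice, adjusted p = 1.06e-03) and -0.28 ± 0.07 (adjusted p = 3.70e-03). The call of Mrps21 was lost with mouse 3, 4 or 8 left out, at -0.18, -0.26 and -0.25, and both calls were lost with at least 10 counts required in every library, at -0.24 for Mrps16 and -0.16 for Mrps21. Lowest over the 16 libraries were Mrps10, at 1.82 ± 0.25 and 2.29 ± 0.11 (in tdTom+ cells Mrps25 was at 2.25 ± 0.26, within the spread), and in the large subunit Mrpl13, at 2.81 ± 0.56 and 2.38 ± 0.26, whose log2 fold change of -0.23 ± 0.09 did not pass (adjusted p = 0.0474) except with the gene length trend removed, at -0.37 (adjusted p = 0.00532). Of the 10 highest members per length, 8 were shared by both fractions, while Mrps36 moved from rank 18 to 43 and Mrps15 from 17 to 39.

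**Figure D4:**
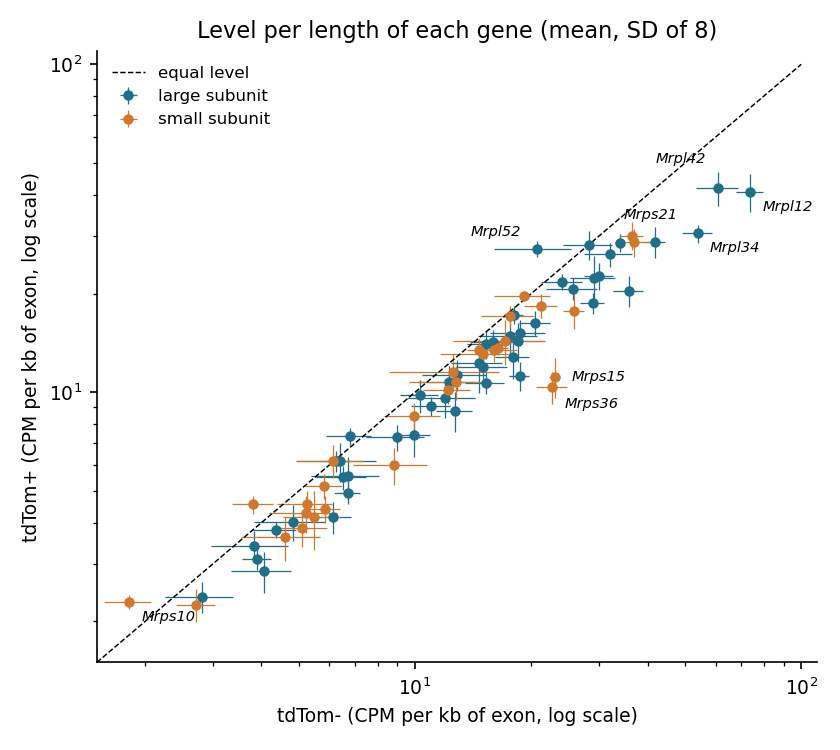
Mean level of each of the 76 genes in tdTom- (x axis) and tdTom+ cells (y axis), in CPM per kb of exon on log axes, with the SD of 8 libraries and the line of equal level. Most points lie a little under the line, Mrps15 and Mrps36 furthest under it, and Mrpl52 and Mrps10 above it.

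The 3 paralogs Mrps18a, Mrps18b and Mrps18c, related to 1 bacterial small-subunit protein, had log2 fold changes of -0.17 ± 0.08, -0.23 ± 0.08 and -0.25 ± 0.09 (SE, n = 8 mice), and none passed (adjusted p = 0.0627, 0.0279 and 0.0232). Mrps18b had a median of 23.8 CPM in tdTom- and 22.9 in tdTom+ libraries, Mrps18a of 20.9 and 18.7, and Mrps18c of 12.7 and 11.1, and the fractions overlapped in each. Exons of Mrps18c share 23.2% of their bases on the same strand with another gene model, as those of Mrps6, Mrps24 and Mrps34 do by 15.1% to 37.0%, and reads there were not assigned. Mrps30 did not pass either, at -0.17 ± 0.10 (adjusted p = 0.169), and was lower in 4 of 8 mice. Mrps18b passed without mouse 5 (-0.29), Mrps18a with the gene length trend removed (-0.25) and Mrps18c without mouse 3 once recentred on the median of all genes (-0.33). Mrpl58, a ribosomal protein that is also a peptidyl-tRNA hydrolase able to release stalled chains, was at -0.23 ± 0.09 (adjusted p = 0.0279), lower in 6 of 8 mice; it passed without mouse 6 and with the gene length trend removed, at -0.30 in both.

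Of 5 genes for proteins of the mitochondrial ribosome with other symbols, Aurkaip1 fell (40.3 ± 1.87 to 33.9 ± 2.57 CPM, SD, n = 8; log2 fold change -0.25 ± 0.05, adjusted p = 7.14e-04) and the others did not pass, with Dap3, of the small subunit, at -0.19 ± 0.06 (adjusted p = 0.0135). The call of Aurkaip1 was lost without mouse 3, at -0.16, and with at least 10 counts required in every library, at -0.13. The median of the 5 was -0.19. Of 26 factors that assemble the ribosome or modify its RNA, 7 were lower (26.9%, beside 30.0% of all genes). Only 1 was higher (3.8%, beside 25.8%), and the median of the 26 was -0.08. Trub2, a pseudouridine synthase family member, fell from 28.5 ± 3.50 to 11.8 ± 1.32 CPM (-1.27 ± 0.08, adjusted p = 3.82e-09), and Rcc1l was higher at 0.30 ± 0.09 (adjusted p = 8.91e-03). The call of Rcc1l was lost in the fits without the mouse block, with total counts, limma-voom, thinning or recentring, and with mouse 1, 2, 5 or 6 left out, at 0.24 to 0.31. Ndufab1, next after Trub2 at -0.95 ± 0.07, codes for the mitochondrial acyl carrier protein, which also serves in respiratory complex I.

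Of the translation factors, 9 of 15 genes tested were lower (60.0%, beside 30.0% of all genes) and 0 were higher (beside 25.8%). Their median was -0.39. Tufm, the elongation factor that brings aminoacyl-tRNA to the ribosome, fell from 99.0 ± 14.6 to 64.2 ± 7.82 CPM (-0.62 ± 0.07, SE, n = 8 mice, adjusted p = 1.66e-06). The smallest called change was that of Oxa1l, the insertase that places new proteins in the inner membrane, at -0.37 ± 0.06 (adjusted p = 1.68e-04). All 15 log2 fold changes were below 0. Mitochondrial aminoacyl-tRNA synthetases and the subunits that make glutaminyl-tRNA were divided, with 8 lower and 3 higher of 20 and a median of -0.17. They ran from Rars2 at -0.49 ± 0.06 (adjusted p = 4.98e-06) to Iars2 at 0.36 ± 0.08 (adjusted p = 1.07e-03), and the call of Iars2 was lost without the mouse block (0.33) and with the gene length trend removed (0.21).

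Genes that copy mitochondrial DNA into RNA or maintain it had 3 of 10 lower, the same share as the 30.0% of all genes. Among them 0 were higher (beside 25.8%), and the median was -0.06. Polg2, the accessory subunit of the mitochondrial DNA polymerase, fell by 1.08 ± 0.09 on the log2 scale (adjusted p = 2.17e-07), its catalytic partner Polg by 0.58 ± 0.05 (adjusted p = 1.84e-07) and the RNA polymerase Polrmt by 0.59 ± 0.08 (adjusted p = 1.15e-05), whereas Tfam, which packages the genome, was at -0.10 ± 0.07 and did not pass (adjusted p = 0.232). Of 10 nuclear regulators, 4 were lower (40.0%, beside 30.0% of all genes) and 3 were higher (30.0%, beside 25.8%). Ppargc1a, a coactivator that drives mitochondrial biogenesis, fell from 59.5 ± 18.8 to 11.2 ± 2.79 CPM (-2.36 ± 0.13, adjusted p = 2.67e-09), while its relative Pprc1 rose from 23.8 ± 4.56 to 37.5 ± 4.82 (0.67 ± 0.07, adjusted p = 1.16e-06). Ppargc1b (-0.99 ± 0.07, adjusted p = 4.62e-08) and Esrra (-1.34 ± 0.05, adjusted p = 8.40e-11), of the same list, also fell. Of the factors whose motifs were counted, Gabpa was at -0.25 ± 0.05 (adjusted p = 4.12e-04). Gabpb1, the other GABP gene in the list, lay above 0 at 0.20 ± 0.06 and did not pass (adjusted p = 0.0119). Yy1 was at 0.17 ± 0.05 (adjusted p = 9.88e-03) and Myc at 0.44 ± 0.13 (adjusted p = 7.52e-03). Nrf1, at 0.13 ± 0.07, did not pass (adjusted p = 0.121).

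Messages that the mitochondrial ribosome translates had far larger log2 fold changes than the genes of its proteins. All 13 mitochondrially encoded genes were lower in tdTom+ cells, by log2 fold changes of -2.53 (mt-Co1) to -2.02 (mt-Nd6), with a median of -2.24. Their sum was 58435 to 205433 CPM in tdTom- and 15908 to 39239 in tdTom+ libraries, without overlap, and relative to the members' sum it was 29.6 to 86.2 times as large in tdTom- and 8.57 to 21.9 times in tdTom+ cells. In both fractions mouse 6 had the lowest sum and mouse 8 the highest. Copies of these genes in the nuclear genome make their read assignment uncertain.

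**Figure D5:**
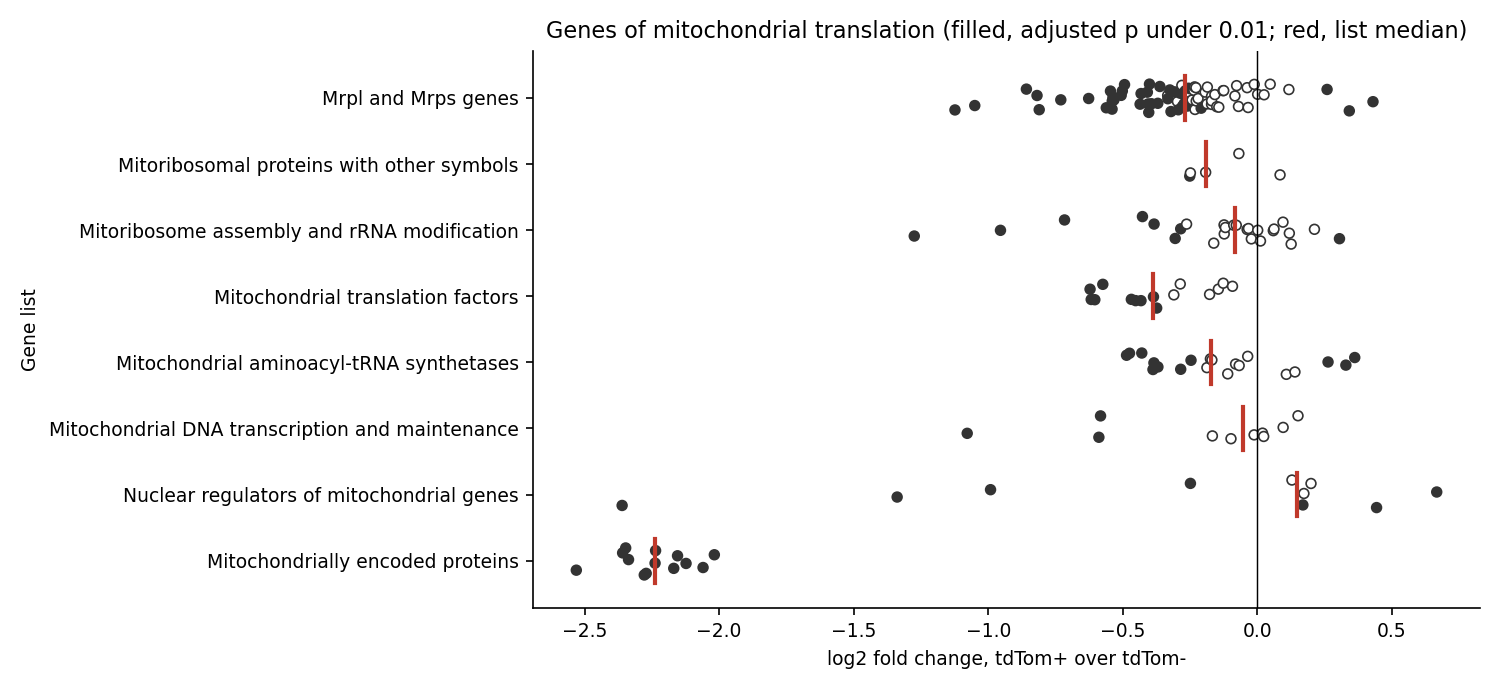
Log2 fold change (tdTom+ over tdTom-) of every gene tested in each list, with filled points for an adjusted p under 0.01 and a red bar at the list median. The Mrpl and Mrps genes centre at -0.27, the translation factors at -0.39 and the mitochondrially encoded genes stand apart at -2.24.

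The count of members lower depended on where the centre of all genes was set. Leaving out mouse 3 left 22 of the 38, and keeping only genes with at least 10 counts in every library left 23; in these fits the median log2 fold change of all genes moved from 0.02 to 0.12. With each fit centred on the median of all genes, the counts were 39 and 39, of which 37 and 38 were among the 38. Without the block for the mouse 36 were lower, and 3 higher as before.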

How the data were processed

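The authors sorted the cells, prepared TruSeq stranded mRNA libraries, sequenced 50-base single-end reads, aligned them to GRCm38 with TopHat2 (2.1.1) and counted reads per gene on the reverse strand with featureCounts. The deposited values are raw counts per gene and library. File headers give featureCounts 1.5.0-p1, the submitters' processing notes Subread 1.5.2.

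Of 45513 gene IDs, 44671 matched GENCODE M21 and 842 did not; GENCODE lists 78 protein-coding Mrpl and Mrps genes, and the ID of a second Mrpl33 model was not among those matched. Genes kept by filterByExpr (15323) were fitted in edgeR (4.0.16, R 4.3.3) by the quasi-likelihood F-test with TMM scaling and the mouse as a block, adjusted by Benjamini-Hochberg over all of them, threshold 0.01. The SE is the log2 fold change divided by the root of F. The series' text says that both fractions came from each SI; deviations of same-numbered libraries correlated at 0.426 on average (0.245 to 0.634), against -0.0569 for others. P-values measure the difference between fractions against how that difference varies from mouse to mouse, since the block takes out differences in level between mice. CPM are scaled by TMM factors; ratios in single mice had 0.05 CPM added. Scripts were tested on simulated counts. Alternatives used DESeq2 (1.42.0), limma (3.58.1) and other scalings, filters and left-out mice.

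Members and lists were chosen with earlier results of these data known. Genes named were up to 6 called members at each end that moved alike in all 8 mice, the 2 highest and the lowest per length in each subunit, Mrps18a to c, Mrps30, Mrps36, Mrpl58, Mrpl12, untested members, the extremes of each list, and 5 check genes. Mrps17, Mrps25, Mrpl10, Mrpl11, Dap3, Ndufab1, Polg, Polrmt, Tfam, Gabpa, Gabpb1, Yy1, Myc, Nrf1, Ppargc1b, Esrra, Vim, Acta2, Pecam1 and the further members whose fractions were apart were named after their values were seen. Promoters are from RefSeq (GRCm38.p6); 9 members had no entry.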

Additional observations from a re-analysis of the deposited data

Results flagged for a closer look

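In 2 of 80 sets of 8 values examined, the most extreme library stood apart from the other 7 by more than Dixon's limit allows; chance alone picks out about 4 such sets. Atoh1 was at 1.25 CPM in the tdTom- library of mouse 1 and at 0.502 to 0.855 in the other tdTom- libraries. Aurkaip1, of the small subunit, was at 39.5 CPM in the tdTom+ library of mouse 5 and at 31.5 to 35.1 in the others.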

How the results depend on the processing

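Settings that moved a count of calls by over 1.5 times were few. With at least 10 counts in every library, 23 members were lower (17 of the large and 6 of the small subunit) and 2 large-subunit genes were higher. With a log2 fold change of at least 0.5 also required, 15 were lower (11 and 4) and 0 higher in either subunit. With a gene length trend removed, 1 member was higher (0 of the small subunit), and total-count scaling or recentring with mouse 3 left out gave 1 higher in the small subunit. At an adjusted p of 0.05, 19 of the small subunit were lower. With each mouse left out in turn, 22 to 45 members were lower (15 to 29 large and 7 to 17 small), lowest without mouse 3 in all of these, 2 to 3 were higher, and 1 to 2 in the small subunit. Without the replicate block for the paired fractions, 36 members were lower and 3 higher (26 and 1 of the large, 10 and 2 of the small subunit). Medians changed sign for ribosome assembly factors (0.0356 with at least 10 counts in every library; -0.1191 without mouse 5 to 0.0209 without mouse 3) and for mitochondrial DNA genes (0.0639 with that minimum; -0.1074 to 0.0605 with single mice left out), where the median of all genes moved as well. The log2 fold change of Mki67 was -0.0062 with total counts, -0.1091 with the length trend removed, and -0.0080 without mouse 5 to 0.1748 without mouse 3; the cause was not tested. The members' median stayed below 0 under all alternatives run, at -0.33 (total counts) to -0.15 (at least 10 counts in every library), and the difference of subunit medians at -0.07 to -0.03. Recentring was chosen after seeing the data. The least-counted members, down to 86 reads in a library, are the least precise, and levels per length rest on annotated exons.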
